A study of Mus musculus with 6 samples.

Results

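Tuft cells are rare epithelial cells of the small intestine that sense the contents of the lumen with a taste-type signalling chain. When microbial metabolites or parasites are detected, calcium released inside the cell opens the cation channel Trpm5, and the cell secretes signals such as interleukin 25 and cysteinyl leukotrienes that act on type 2 innate lymphoid cells. The transcription factor Pou2f3 is required for the lineage, and epithelial cells that respond to interleukin 13 give rise to more tuft cells. In this study, 7 genes of this cell type were followed in the intestinal mucosa of mice that lack alkaline sphingomyelinase (alk-SMase), an enzyme of the gut that hydrolyses sphingomyelin. They were Dclk1, a kinase that marks tuft cells, Trpm5, Pou2f3, the succinate receptor Sucnr1, Alox5 and Ltc4s, the enzymes that begin and complete leukotriene C4 synthesis, and Avil, which encodes the actin-binding protein advillin. The genes were chosen by symbol as genes of the cell type.

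The libraries came from the middle small intestinal mucosa of 3 alk-SMase knockout (KO) mice, K79S, K82S and K86S, and 3 wild type (WT) mice, W83S, W89S and W90S, all of the C57BL/6 strain, with 1 library per mouse. In the KO mice, exon 2 of the alk-SMase gene Enpp7 was removed with Cre and loxP, which changes the reading frame. Ages, sexes and the promoter that drove Cre are not given in the sources used here. Expression was measured by RNA-seq as FPKM, fragments scaled by transcript length and by library size, so that levels can be set side by side between genes. As reads behind a value are not recorded in FPKM, the depth per gene is unknown and the error given is the spread over mice. Per library, the study lists the fewest mapped reads for K86S and the most for W83S. In bulk mucosa, fewer tuft cells and less RNA per tuft cell cannot be told apart.

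In the deposited table the identifiers stood beside the values of other genes, and a pairing by rank was undone to bring each gene back to its row. Of the 22700 identifiers 12402 could be placed, among them 3 of the 7 tuft cell genes, Trpm5, Ltc4s and Avil. Values of genes with a single transcript are printed with at most 6 decimals. The offsets between the rankings had been estimated from these decimals, so that the shares that follow describe the placing and are no independent check of it. After placing, 99.67% of the 3649 genes with a single transcript and 5.8% of the 8748 genes with several stood on a row with at most 6 decimals. Beside the identifiers as deposited, these shares were 33.87% and 34.33%. Dclk1, Pou2f3, Sucnr1 and Alox5 rank below the stretch that could be placed, and no value over the 6 libraries is given for them. The rank of an identifier fixes its level in W83S closely, since neighbouring rows hardly differ there. Rows up to 40 ranks to either side spanned 0.499 to 0.514 FPKM for Dclk1, 0.57 to 0.584 FPKM for Pou2f3, 0.281 to 0.288 FPKM for Sucnr1 and 0.788 to 0.811 FPKM for Alox5. If their offset stayed within that range, all 4 lay below 1 FPKM in W83S, under each of the 3 placed genes.

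Both genotypes held libraries that stand apart. Enpp7 itself was at 605, 129 and 669.7 FPKM in the KO mice K79S, K82S, K86S and at 406, 667 and 495 FPKM in the WT mice W83S, W89S, W90S, and a value summed over the gene cannot reveal whether exon 2 is missing. In W83S the 6 placed markers of gastric epithelium summed to 38524 FPKM, against 0 to 5.24 FPKM in the other 5 libraries. In K82S the 4 placed leukocyte markers summed to 93.0 FPKM, against 23.5 to 58.1 FPKM elsewhere. Stomach epithelium holds tuft cells, and leukocytes express several genes of the tuft cell signature too, so several values are also given without W83S or K82S.

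The 3 placed genes lie on different chromosomes of mm10. Trpm5 (ENSMUSG00000009246) occupies chr7:143069153-143094642 on the minus strand, Ltc4s (ENSMUSG00000020377) chr11:50236461-50238616 on the minus strand and Avil (ENSMUSG00000025432) chr10:127000709-127020994 on the plus strand. Each is overlapped by a gene of the opposite strand, Trpm5 by Tssc4, Ltc4s by the antisense gene Gm26542 and Avil by Tsfm. How strand was handled in the counting is not given in the sources used here, so reads of the overlapped parts may be shared.

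As Pou2f3 belongs to a family that binds the octamer ATGCAAAT, the 250 bases before the RefSeq start of each placed gene (GRCm38.p6) were searched on both strands, and they are shown for the 3 genes whose levels follow. The windows are chr7:143094643-143094892 for Trpm5 and chr11:50238533-50238782 for Ltc4s, both read on the minus strand, and chr10:127000459-127000708 for Avil on the plus strand. Capitals mark the octamer without its last base, ATGCAAA or its reverse complement TTTGCAT.

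Trpm5: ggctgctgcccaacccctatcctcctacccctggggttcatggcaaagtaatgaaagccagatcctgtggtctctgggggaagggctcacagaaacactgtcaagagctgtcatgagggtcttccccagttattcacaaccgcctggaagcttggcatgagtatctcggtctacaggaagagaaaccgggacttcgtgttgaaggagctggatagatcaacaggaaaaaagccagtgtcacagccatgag
Ltc4s: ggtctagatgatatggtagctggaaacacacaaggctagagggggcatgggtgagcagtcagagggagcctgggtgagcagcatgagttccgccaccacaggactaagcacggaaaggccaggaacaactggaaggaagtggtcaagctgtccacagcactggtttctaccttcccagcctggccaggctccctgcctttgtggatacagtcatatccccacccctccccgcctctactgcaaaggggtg
Avil: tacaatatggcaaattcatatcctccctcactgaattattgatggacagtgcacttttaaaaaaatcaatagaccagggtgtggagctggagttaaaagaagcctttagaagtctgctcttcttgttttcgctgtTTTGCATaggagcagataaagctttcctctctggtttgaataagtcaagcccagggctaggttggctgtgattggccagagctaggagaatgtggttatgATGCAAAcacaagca

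The shortened octamer occurred 2 times before Avil and not in the windows of Trpm5 and Ltc4s. None of these 3 windows held the whole octamer. Of all 32851 promoter windows of this length, 4.12% held the shortened form and 1.6% the whole octamer. Among the genes that were not placed, the window of Sucnr1 held the whole octamer, those of Alox5 and Dclk1 held neither form, and Pou2f3 is named only. These matches of letters describe the windows and are not evidence of binding.

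The comparison of KO mice with WT mice asked whether loss of alk-SMase went with another level of tuft cell transcripts. None of the 3 genes rose or fell (limma with an adjusted p under 0.05 and a fold of more than 1.5 or less than 2/3), and 0 of 3 had an unadjusted p-value under 0.05. Over all 13089 rows tested, 1 row (0.00764%) passed and 1638 had an unadjusted p-value under 0.05. All changes are given on the log2(FPKM + 1) scale, which understates those of weakly expressed genes, and a two-sided exact permutation test of 3 mice against 3 cannot go below p = 0.1.

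Trpm5, the channel that depolarises the cell, was measured at 1.99, 2.05 and 2.23 FPKM in K79S, K82S and K86S, the KO mice. In the WT mice W83S, W89S and W90S it was at 2.06, 0.866 and 1.65 FPKM. The KO libraries lay close together and W83S lay among them, while W89S was below the rest. The mean of the KO mice was 2.09 ± 0.128 FPKM and that of the WT mice 1.53 ± 0.608 FPKM (SD, n = 3 each). On the log2 scale the change was 0.32 with a 95% confidence interval of -0.17 to 0.81 (limma adjusted p = 0.507, exact permutation p = 0.3). It stayed above 0 in all 16 alternative settings of fit, scaling and libraries, and was smallest, 0.12, without W89S. The overlapping gene Tssc4 had 8.40, 8.35 and 8.20 FPKM in KO and 6.73, 4.93 and 6.05 FPKM in WT, also lowest in W89S, and its part in the values of Trpm5 was not tested.

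Ltc4s, which joins glutathione to leukotriene A4, was the highest of the 3 genes in 5 of the 6 libraries. Its FPKM was 4.52, 2.78 and 5.70 in K79S, K82S and K86S, and 6.37, 2.39 and 4.81 in W83S, W89S and W90S. Each genotype thus held 1 library near the bottom of the range, K82S and W89S, and the groups overlapped along nearly all of it. The KO mean of 4.33 ± 1.47 FPKM and the WT mean of 4.52 ± 2.0 FPKM (SD, n = 3 each) differed by far less than the spread between mice. On the log2 scale the change was -0.018 with a 95% confidence interval of -0.82 to 0.79 (limma adjusted p = 0.986, exact permutation p = 1). Its sign turned with rescaling to a common sum, with quantile normalization, with array weights and when K82S, W83S or W90S was left out.

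Avil, whose product bundles actin and is found in the apical tuft of these cells, varied most between mice. It was at 1.88, 2.21 and 3.46 FPKM in the KO mice (K79S, K82S, K86S) and at 10.8, 0.850 and 0.752 FPKM in the WT mice (W83S, W89S, W90S). W83S was 3.11 times the next library, and the other WT libraries were the lowest of all 6. The WT mean, 4.12 ± 5.75 FPKM, is therefore set by W83S, the library with gastric markers, beside 2.52 ± 0.832 FPKM in KO (SD, n = 3). On the log2 scale the change was 0.038 with a 95% confidence interval of -1.70 to 1.77 (limma adjusted p = 0.986, exact permutation p = 1). Without W83S all 3 KO libraries lay above both remaining WT libraries, and the log2 fold change became 0.94 (adjusted p = 0.542 from limma). With K82S left out as well it was 0.99 (adjusted p = 0.089 from limma). Tsfm, which overlaps Avil, had 4.58 FPKM in W83S and 2.5 to 6.28 FPKM in the other libraries, and its part in the values of Avil was not tested.

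**Figure D1:**
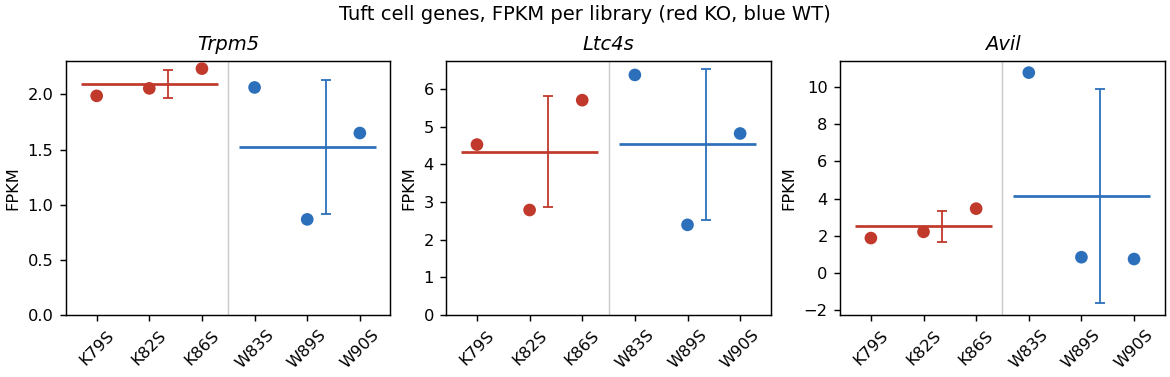
FPKM of Trpm5, Ltc4s and Avil (vertical axes) in each library (horizontal axes), with KO in red and WT in blue. Horizontal lines are genotype means and bars are ± SD (n = 3 mice); W89S is at or near the bottom in each panel and W83S stands alone for Avil at 10.8 FPKM.

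In the order of mean levels, Ltc4s (4.43 FPKM over all 6 libraries) came before Avil (3.32 FPKM) and Trpm5 (1.81 FPKM). The place of Avil above Trpm5 held in W83S, K82S and K86S but not in K79S, W89S and W90S, so these neighbours in the order did not differ beyond their spread. Between the 3 genes the Pearson correlations of log2(FPKM + 1) over the 6 libraries were 0.67 for Ltc4s with Trpm5, 0.64 for Avil with Ltc4s and 0.59 for Avil with Trpm5. They are given as a description, as the points share their libraries and their scaling.

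**Figure D2:**
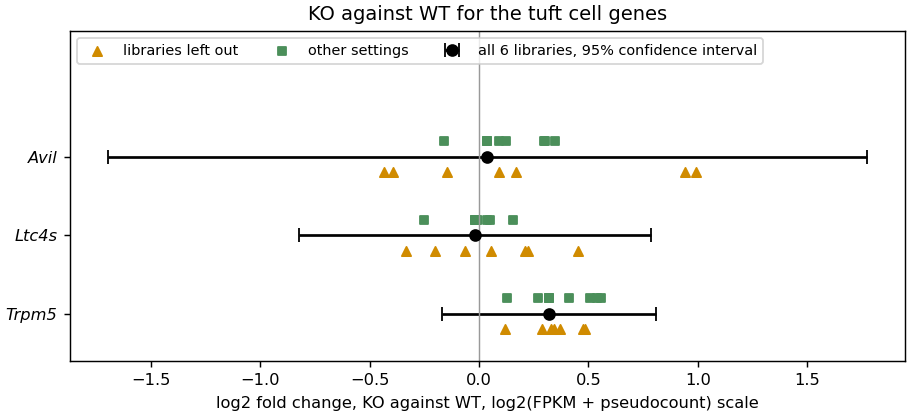
log2 fold changes of KO against WT (horizontal axis) for the 3 genes. Black points with bars give all 6 libraries with 95% confidence intervals from limma, triangles leave out libraries and squares change the pseudocount, filter, scaling or variance model; every interval spans 0, and Trpm5 alone has all its points above 0.

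Further genes of the tuft cell signature were taken from 3 lists, made with earlier results of these data known. Of the 46 genes used from them 23 were placed and 22 were tested, and 0 of the 22 passed the thresholds in limma. Unadjusted limma p-values were under 0.05 for 3 of the 22, beside 1638 of all 13089 rows. Together with Trpm5, Ltc4s and Avil, 19 of 25 genes had a log2 fold change above 0 (76.0%), against 42.3% of all rows tested. Their median was 0.17, beside -0.061 over all rows. The count was 21 of 25 after rescaling to a common sum, against 59.4% of all rows. After rescaling to epithelial markers it was 11 of 25, against 16.0% of all rows. These scalings moved the median of all rows by 0.15 and -0.22, and the median of the 25 genes lay above that of all rows by 0.265 and 0.19. With single libraries left out, the count ran from 14 (without K82S) to 19 (without W90S), against 40.1% and 44.0% of all rows. In the largest of the 3 lists, 13 of 16 tested genes were above 0 with all libraries. This became 8 of 16 without K82S, the library with the most leukocyte signal, and 9 of 16 without K82S and W83S. The part of leukocytes in these counts was not tested.

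Every KO value exceeded every WT value for 2 of the 25 genes (8.0%), and the reverse held for 0, against 5.9% and 11.3% of all rows. The 2 genes were Siglecf and Trpm4. Siglecf, a sialic acid-binding lectin of tuft cells and eosinophils, was at 1.45, 1.64 and 2.41 FPKM in the KO mice (K79S, K82S, K86S) and at 1.28, 0.288 and 0.627 FPKM in the WT mice (W83S, W89S, W90S). The lowest KO value and the highest WT value were close, and the log2 fold change was 0.74 ± 0.25 (SE; limma adjusted p = 0.393). The eosinophil marker Prg2 had 0.352, 2.65 and 0 FPKM in KO and 1.36, 0.834 and 0 FPKM in WT, and the part of eosinophils in Siglecf was not tested. Trpm4, a relative of Trpm5 with wider expression, had 30.1, 28.0 and 21.627 FPKM in KO and 16.7, 21.602 and 19.3 FPKM in WT, so that K86S and W89S were nearly level. Its log2 fold change was 0.44 (SE 0.18, limma adjusted p = 0.393).

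Among the other genes of taste-type signalling, Rgs13, a regulator of G protein signalling, had 0.84, 1.20 and 2.05 FPKM in KO and 1.44, 0.391 and 1.23 FPKM in WT. The genotypes overlapped, with K86S at the top and W89S at the bottom (log2 fold change 0.24, SE 0.29, and 0.39 without W83S). Itpr3, the calcium release channel upstream of Trpm5, varied little, from 16.3 to 23.4 FPKM. The other 10 genes of this list, among them the G protein subunit Gnat3 and the phospholipase Plcb2, have no values here.

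Of the transcription factors, Spib, which B cells also express, had 1.85, 8.16 and 3.28 FPKM in KO and 1.23, 5.05 and 6.81 FPKM in WT. Its order, with K82S highest, W90S next and W83S lowest, was also that of the summed leukocyte markers, and the part of leukocytes in it was not tested. Its log2 fold change was 0.027 with all libraries, -0.44 without K82S, -0.51 without W83S and -0.98 without both (limma adjusted p = 0.988, 0.676, 0.78 and 0.101). 1810046K07Rik, known as a coactivator partner of Pou2f3, had 8.33, 3.16 and 7.08 FPKM in KO and 3.87, 6.32 and 6.54 FPKM in WT, with overlap and K82S lowest. Its log2 fold change of 0.075 became 0.43 without K82S and -0.13 without W83S (limma adjusted p = 0.306 and 0.951). Sox9, a factor of the crypt base and of tuft cells, had 0.996, 2.26 and 1.25 FPKM in KO and 5.17, 5.49 and 1.87 FPKM in WT. Its log2 fold change was -0.99 (SE 0.36, unadjusted p = 0.0288, limma adjusted p = 0.393), and K82S lay above W90S.

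Sh2d6, an adaptor protein of the tuft cell signature, had 3.87, 4.55 and 6.26 FPKM in KO and 4.76, 1.91 and 2.46 FPKM in WT. W83S lay among the KO libraries while W89S and W90S lay below all of them (log2 fold change 0.59, SE 0.29, limma adjusted p = 0.414). The most abundant genes of its list, Krt18, Atp2a3 and Cd24a, are not restricted to tuft cells. Cd24a had 87.9 FPKM in W83S and 11.3 to 27.1 FPKM elsewhere, again with the gastric markers in the same library. Its log2 fold change was -1.03 with all libraries and -0.44 without W83S (limma adjusted p = 0.440 and 0.743). Krt18 ranged from 105 to 242 FPKM and Atp2a3 from 24.4 to 44.9 FPKM, with overlap.

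W89S was the lowest library for 8 of the 25 genes (32.0%), against 10.8% of all rows tested. The 8 genes were Trpm5, Ltc4s, Rgs13, Skap2, Sh2d6, Sh2d7, Lrmp and Siglecf. W83S was the lowest for 7 of the 25 and for 15.2% of all rows, and K82S was the highest for 8 of the 25 and K86S for 6, against 22.1% and 12.5% of all rows. The 5 epithelial markers summed to 6173 FPKM in W89S, 3031 of them from Krt8, and to 4205 to 6408 FPKM over all libraries. Their part in this pattern was not tested. This pattern was noticed in the values and is given without a test. Sh2d7, an adaptor protein named after its values were seen, had 1.09, 2.10 and 2.58 FPKM in KO and 1.70, 0.846 and 1.10 FPKM in WT. W83S was within the range of the KO libraries, W90S near its lower end and W89S below it.

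**Figure D3:**
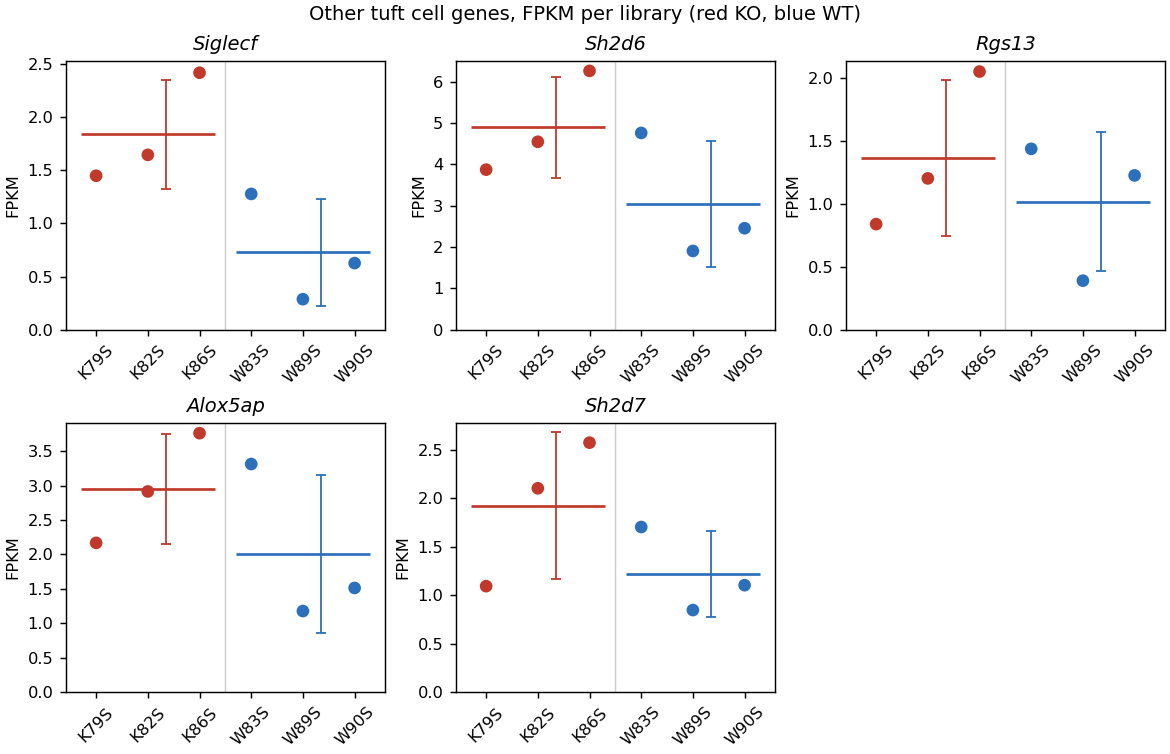
FPKM of Siglecf, Sh2d6, Rgs13, Alox5ap and Sh2d7, chosen after their values were seen (vertical axes), in each library (horizontal axes), with KO in red and WT in blue, genotype means as lines and ± SD as bars (n = 3 mice). The 5 genes were picked for a low value in W89S, so that W89S is the lowest library in all 5 panels by choice. K86S is the highest in each. Of the 25 tuft cell genes tested, W89S was the lowest library for 8 and K86S the highest for 6.

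Likeness to Trpm5 was measured by the Pearson correlation of log2(FPKM + 1) over the 6 libraries. Of the 24 other genes 3 (12.5%) were above 0.8, Siglecf (0.90), Sh2d6 (0.89) and Rgs13 (0.84), against 1.44% of all other rows. The median was 0.092 for the 24 genes and -0.16 for all rows. By their likeness to the joint profile of Trpm5, Ltc4s and Avil, the genes in front were Hdlbp (0.979), Sult6b2 (0.958), Il6st (0.957), Dnajb11 (0.956) and Amigo3 (0.953). Of 11811 genes 34 had a correlation over 0.9 with this profile, and 0 of the 34 were in the tuft cell lists. With so few genes over 0.9, this count cannot show whether the measure singles out genes of the cell type.

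**Figure D4:**
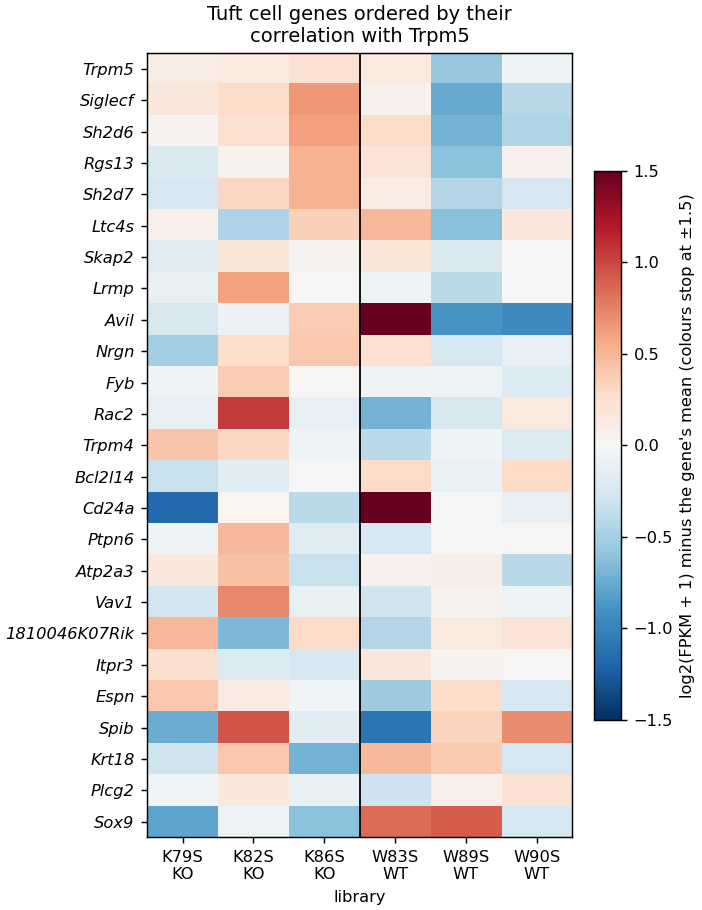
Deviation of log2(FPKM + 1) from each gene's mean over the 6 libraries (colour, cut at ± 1.5) for 25 tuft cell genes (rows, ordered by their correlation with Trpm5) in each library (columns). The rows from Trpm5 down to Sh2d7 are bluest in W89S and reddest in K86S, as Trpm5 itself is, and the ordering puts such rows first. Avil and Cd24a are reddest in W83S. Rescaling to epithelial markers turns the direction of KO against WT for part of these genes.

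The leukotriene pathway around Alox5 and Ltc4s was described by 13 genes, of which 7 were placed and 6 tested. None passed the thresholds in limma, and 2 of the 6 had an unadjusted p-value under 0.05, beside 1638 of all 13089 rows. The median log2 fold change was 0.13. This median was 0.010 without K79S and 0.047 without K86S or W83S, and turned to -0.0095 without K82S and W83S and -0.15 with rescaling to epithelial markers. Alox5ap, which presents arachidonic acid to Alox5 and is named here after its values were seen, had 2.17, 2.91 and 3.76 FPKM in KO and 3.31, 1.18 and 1.51 FPKM in WT. As with Trpm5, W83S lay among the KO libraries and W89S was lowest (log2 fold change 0.44, SE 0.29, limma adjusted p = 0.522, and 0.74 without W83S, limma adjusted p = 0.542). The most abundant genes of the pathway are carried by absorptive and other cells. Mgst3, a microsomal glutathione transferase related to Ltc4s, had 215, 250 and 299 FPKM in KO and 440.2, 372 and 438 FPKM in WT. Its KO values were all under its WT values, as were those of Mgst2 and of 11.3% of all rows. The log2 fold change of Mgst3 was -0.72 (SE 0.20, limma adjusted p = 0.393). Ggt1 and Dpep1, which trim leukotriene C4 outside the cell, ranged from 226 to 379 FPKM and from 205 to 479 FPKM, with overlap.

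Tuft cells also make prostaglandins, and 5 of 8 genes of that list were placed and tested. None passed in limma, and 1 of the 5 had an unadjusted p-value under 0.05, beside 1638 of all 13089 rows. The median log2 fold change was 0.14. This median was 0.39 without K82S and turned to -0.125 without K86S and -0.135 with rescaling to epithelial markers. Ptges2 had 7.44, 6.96 and 7.30 FPKM in KO and 10.2, 9.11 and 11.7 FPKM in WT, and Ptges3 had 9.21, 11.7 and 13.4 FPKM in KO and 15.7, 13.6 and 15.4 FPKM in WT. For both of these prostaglandin E synthases no KO value reached the lowest WT value, as in 11.3% of all rows, with adjusted p = 0.393 and 0.403 from limma. Hpgd, which inactivates prostaglandins, ranged from 79 to 162 FPKM, with overlap.

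The type 2 circuit that acts on tuft cells was described by 20 genes, of which 7 were placed and tested. None passed in limma, and 1 of the 7 had an unadjusted p-value under 0.05, beside 1638 of all 13089 rows. The median log2 fold change was 0.14. This median was 0.072 without K79S, 0.020 without K86S and 0.28 without W90S, and turned to -0.089 with rescaling to epithelial markers. Its cytokines Il4, Il5, Il9 and Il13 had no identifier among the 22700, and none of the 5 genes of other tuft cell signals, Il25 and Chat among them, was placed. The receptor chains for interleukin 4 and interleukin 13 were measured. Il13ra1 had 30.6, 33.9 and 36.2 FPKM in KO and 25.4, 22.0 and 28.6 FPKM in WT, and Il4ra had 12.1, 16.1 and 12.5 FPKM in KO and 10.6, 11.200 and 11.187 FPKM in WT. For both receptor chains the KO values were above the WT values without overlap, as in 5.9% of all rows, by a log2 fold change of 0.40 (SE 0.16, limma adjusted p = 0.393) and 0.27 (SE 0.15, limma adjusted p = 0.458). Without K82S the value of Il4ra was 0.15 (limma adjusted p = 0.474). Stat6, the factor that both receptors activate, ranged from 26.7 to 34.0 FPKM with a log2 fold change of -0.013.

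Markers of other cells differed between the libraries as well. Of the 4 placed leukocyte markers 0 passed in limma, all 4 had a log2 fold change above 0 with all libraries but 1 of 4 without K82S, 1 of 4 without W83S and 0 of 4 without both (median 0.21, -0.24, -0.12 and -0.56), and their sum was 29.3, 93.0 and 31.4 FPKM in the KO mice and 23.5, 43.5 and 58.1 FPKM in the WT mice, in the order used above. The 6 placed macrophage markers summed to 63.0 to 197 FPKM in KO and 87.3 to 242 FPKM in WT. Of these 6, 0 passed in limma and 1 (Csf1r) had an unadjusted p-value under 0.05, beside 1638 of all 13089 rows. Lyz2 alone made up 184 of the 242 FPKM in W89S, and 4 of the 6 markers were highest in K82S. Without Lyz2 the sums were 45.5, 74.9 and 71.6 FPKM in the KO mice and 46.3, 58.6 and 53.2 FPKM in the WT mice. Macrophages also use Alox5 and Alox5ap. The 4 placed mast cell markers, cells that also use Ltc4s, summed to 2.11 to 5.82 FPKM in KO and 3.02 to 5.85 FPKM in WT. In limma 0 of 3 tested passed. Hdc made up 1.53 of the 5.85 FPKM in W83S, the library with gastric markers, and had 0.042 to 0.127 FPKM elsewhere. Mcpt2, with a single transcript, stands on a row with more than 6 decimals, unlike most such genes. Fcer1a, Ms4a2 and Cma1 had no identifier among the 22700. The part of these cells in the tuft cell results was not tested.

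**Figure D5:**
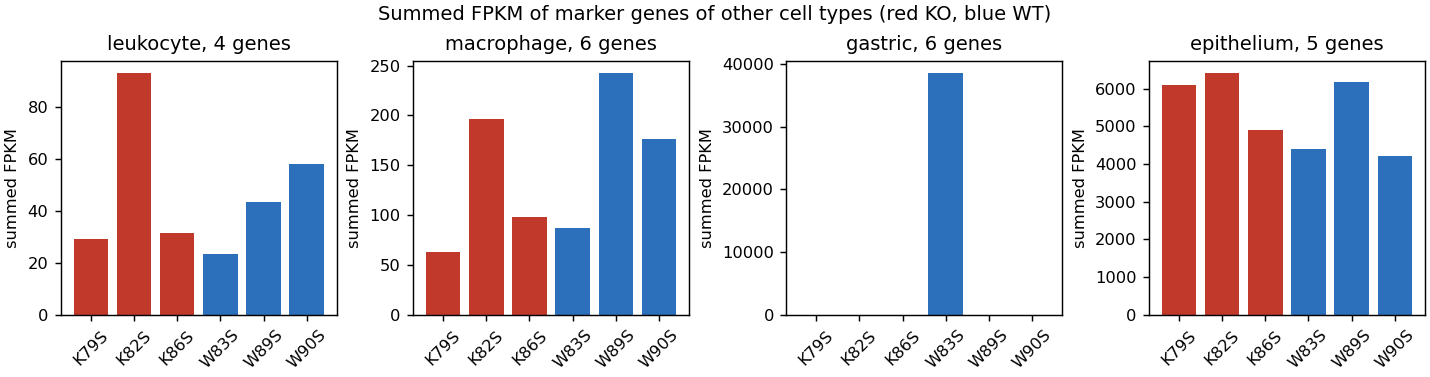
Summed FPKM (vertical axes, bars from 0) of the placed markers of leukocytes, macrophages, gastric epithelium and general epithelium in each library (horizontal axes), with KO in red and WT in blue. K82S has the most leukocyte signal, W83S carries 38524 FPKM of gastric markers and W89S is among the highest for epithelium.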

How the data were processed

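RNA of the middle small intestinal mucosa of 3 KO and 3 WT mice was sequenced as single-end reads. The authors trimmed the reads, mapped them to mm10 with HISAT2 and quantified genes with StringTie, with versions and annotation not given in the sources used here. The authors deposited FPKM, 1 value per gene and library. Column sums ranged from 393152 to 465901 for KO and from 473383 to 495362 for WT, so every KO sum lay below every WT sum. The main fit did not rescale them. With rescaling to a common sum, 59.4% of all rows had a log2 fold change above 0, against 42.3% in the main fit. The shares of 5.9% and 11.3% of rows without overlap are given for unscaled values only. There were 0 unmapped columns of values. The study called changed genes with edgeR, which needs counts and was not used here.

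Identifiers were ranked by K79S beside them and rows by W83S, and each gene was taken from the row of its rank plus a stepwise offset that an earlier analysis of this table had estimated from printed decimals. Genes outside the ranks covered were dropped. Of 22700 identifiers 22680 had a symbol in GENCODE M21. A misplacement by 1 rank would leave the W83S value nearly the same and change the others.

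Rows with at least 1 FPKM in at least 2 libraries were kept. A linear model of log2(FPKM + 1) was run in limma 3.58.1 under R 4.3.3 (trend, all 6 libraries, no covariate, Benjamini-Hochberg adjustment over all rows). The fit was tested on simulated rows with changes far larger than those of Trpm5, Ltc4s and Avil, so this test does not cover changes of their size. Numbers were summarised in Python 3.11.15 with pandas 2.3.3. The members and lists were chosen with earlier results of these data known. Of the tuft signature 1 gene is not reported here and was left out of all counts over lists. Lists covered the tuft signature, leukotrienes, prostaglandins, the type 2 circuit and markers of other cells. Named genes were the members, the 3 highest in each list, for tuft lists also the 3 with the largest change, and those nearest to the joint profile. Alternatives were other pseudocounts, filters, scalings and variance models, leaving out libraries, and the neighbouring rows. Leaving out K82S and W83S together was chosen after seeing the data.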

Additional observations from a re-analysis of the deposited data

How the results depend on the processing

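The number of rows past both thresholds was 1 with all libraries, 0 with a pseudocount of 0.1 or 0.01 and 2 with array weights. It ran from 0 to 1184 with single libraries left out, the latter without K82S, and was 1111 without K82S and W83S. Of the 1184 rows 1133 were lower in KO, and of the 1111 rows 1069 were. Both fits used values without rescaling, and the part of the lower KO column sums in these counts was not tested. None of Trpm5, Ltc4s and Avil passed in any of the 16 alternatives. One gene of the other lists, Lyz2, passed without K82S and W83S, a count of 1, and none did otherwise. Of the 3 genes 1 was lower in KO, a number that was 0 after rescaling to a common sum, quantile normalization, array weights or leaving out K82S and W83S, 2 after rescaling to epithelial markers, and 0 to 2 with single libraries left out. The median of the 3 log2 fold changes was 0.038, turned to -0.16 with epithelial markers and ran from -0.334 to 0.475 with single libraries left out. Ltc4s turned to 0.15 after rescaling to a common sum, 0.050 with quantile normalization, 0.039 with array weights and 0.45 without K82S and W83S, and ran from -0.33 to 0.23 without single libraries. Avil turned to -0.16 with epithelial markers and ran from -0.43 (without W90S) to 0.94 (without W83S). With a pseudocount of 0.1, a pseudocount of 0.01 and rescaling to a common sum, Avil, which was also the median, came to 0.296, 0.348 and 0.301, and Trpm5 to 0.507, 0.539 and 0.556. Rows 1 rank away, which belong to other genes, gave -0.22 below Trpm5, 0.50 above Ltc4s and -0.16 below Avil, so these values depend on the placing. The cause of these moves was not tested. No paired analysis was possible because matched pairs are spoken of in the study but no label says which KO and WT mice belong together. With 3 mice a genotype and no read counts the intervals are wide, and the smallest difference that could have been called was not computed.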

Other observations

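Markers of the remaining cell types were measured beside the tuft cell genes, and none of them passed the thresholds in limma. Of 6 enteroendocrine markers 4 were placed and tested, with 2 above and 2 below 0 and 0 unadjusted p-values under 0.05. Chga, a granule protein of these cells, had 71.9 FPKM in W83S and 19.1 to 33.1 FPKM in the other libraries, and its log2 fold change was -0.53 with all libraries and -0.051 without W83S (limma adjusted p = 0.611 and 0.976). Chgb, Scg2 and Pcsk1 did not have their highest value in W83S. Of 6 smooth muscle markers 3 were placed and tested, all above 0 with all libraries but 0 of 3 without K86S, 0 of 3 without W83S and 1 of 3 without W89S, and their sum was highest in W90S (33.6 FPKM) and K86S (29.1 FPKM) and 10.6 to 16.5 FPKM elsewhere. Of 6 granulocyte markers 1, Prg2, was placed. Of 8 acinar markers 1, Ctrb1, was placed, with 2.11 FPKM in W83S, and it was not tested. No marker of enteric neurons was placed. The 5 epithelial markers all had a log2 fold change above 0, with a median of 0.25, and 0 of them passed. Rescaling to these same markers sets their mean log level equal in all libraries. The 2 of 5 that stayed above 0 there are therefore no check of their direction. Of the 10 gastric markers 6 were placed and 2 tested, Tff1 and Pgc, which had 15727 and 15082 FPKM in W83S and at most 1.30 and 3.93 FPKM in the other libraries.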
